A study of Mus musculus with 4 samples.

Results

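The genes described here are 56 components of the Wnt signalling pathway, of 35527 gene names measured on an Agilent whole genome mouse array. They are the genes whose deposited names match the Wnt ligands, Porcn, the Frizzled receptors (Fzd), the co-receptors Lrp5 and Lrp6, the R-spondins and their receptors Lgr4 to Lgr6, the secreted antagonists of the Dkk and Sfrp families with Frzb and Wif1, the Axins, β-catenin (Ctnnb1), and the Tcf and Lef factors. The rule uses the names alone and no measured value, although earlier results of these data were known when it was set. The study set side by side the expression profiles of 4 mouse cell populations, each hybridized to 1 single-colour array. MEF are embryonic fibroblasts of C57BL/6 background, grown with 10% serum. iPS-OSH and iPS-J are induced pluripotent stem cell lines, also of C57BL/6 background, and ESC are embryonic stem cells of 129SV background. All 3 pluripotent populations were grown with 15% serum and LIF, a cytokine that holds mouse stem cells in self-renewal. The labels do not give how either iPS line was made, what OSH and J stand for, or the age of the embryos behind MEF.

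Wnt proteins are secreted lipid-modified ligands. They bind a Frizzled receptor together with Lrp5 or Lrp6 and thereby stop the Axin complex from marking β-catenin for destruction, so that β-catenin reaches the nucleus and binds Tcf and Lef factors at target genes. R-spondins, through Lgr receptors, raise the sensitivity of a cell to Wnt, and the secreted antagonists lower it. In mouse ESC the pathway is known for supporting self-renewal, chiefly by relieving repression by Tcf7l1, and in fibroblasts several ligands, receptors and antagonists are part of the normal mesenchymal profile.

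With 1 array per population no difference has a replicate check, so sizes are given and no p-value. Each value below is a scaled signal, the processed signal of a gene's brightest probe as a percent of the 75th percentile of its array. Differences are log2 differences of scaled signal, and genes past 2-fold, up or down, are those counted below. Where a probe was well above background on only 1 of a pair of arrays, the difference is a bound, written "at least". Such a bound holds for the scaling and detection used here and can be smaller under other settings. Levels of different genes are not compared, since probes differ in brightness. Of the 56 genes, 45 were well above background on all 4 arrays, 54 on at least 1, and Wnt2 and Wnt3a on none. By array, 54 were so in iPS-OSH, 48 in iPS-J, 52 in ESC and 51 in MEF. The share of all spots well above background was 78.2%, 67.0%, 78.4% and 81.7% in the same order. Probes printed 10 times per array had a median log2 SD between spots of 0.07 to 0.16, and of 0.23 to 0.50 at signals under 200, which limits what the dimmest genes show. All arrays lay on 1 slide, but MEF, ESC and the pair of iPS lines were scanned in 3 separate sessions. In every comparison with MEF or ESC the scan session and the group therefore cannot be told apart, nor can strain and group where ESC is compared, nor culture medium and group where MEF is compared.

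Sequences are shown first for a pair of receptor probes that are alike in sequence and gave similar differences from MEF. The probe that represents Fzd2 lies at mm9 chr11:102467613-102467672 on the + strand, and the dimmer of the Fzd7 probes at mm9 chr1:59541367-59541426 on the + strand. Of 2346 pairs among the 69 probes of these genes, this pair was the most alike. The probes shared 42 of the 50 bases over which they overlap, printed in capitals, and the next most similar pair shared 30 of 60.
Fzd2: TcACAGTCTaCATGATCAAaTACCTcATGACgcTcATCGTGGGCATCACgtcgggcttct
Fzd7: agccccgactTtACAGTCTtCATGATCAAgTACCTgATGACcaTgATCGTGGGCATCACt

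Promoter sequences were matched by symbol in the RefSeq table of GRCm38.p6 for 37 of the 56 genes, with 46 start sites. The 250 bases before each start were searched on both strands for CTTTGAT and CTTTGAA, the core letters that Tcf and Lef factors favour. A match was found before 3 of the 46 starts (6.52%), in Wnt5b, Wnt11 and Dkk1, and before 2457 of all 32851 starts in the table (7.48%). The median GC content of these windows was 66.8% for the Wnt pathway genes and 52.4% for all starts. The windows of 4 genes are shown. Dkk1 holds a match and, like Axin2, is a textbook Wnt target, and Fzd10 and Fzd1 are, by their brightest probes, the Frizzled receptors farthest above and below MEF on all 3 pluripotent arrays. The windows are those of Dkk1 (GRCm38.p6 chr19:30549497-30549746, - strand), Axin2 (chr11:108920099-108920348, + strand), Fzd10 (chr5:128600856-128601105, + strand) and Fzd1 (chr5:4758217-4758466, - strand). Capitals mark the motif, which in Dkk1 begins at position -117 from the start. The window of Axin2, Fzd10 or Fzd1 holds neither 7-letter string.
Dkk1: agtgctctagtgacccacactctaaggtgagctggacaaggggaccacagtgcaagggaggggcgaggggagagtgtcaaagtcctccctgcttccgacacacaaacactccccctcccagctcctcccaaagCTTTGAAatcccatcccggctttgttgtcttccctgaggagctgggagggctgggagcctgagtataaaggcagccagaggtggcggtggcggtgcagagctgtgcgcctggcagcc
Axin2: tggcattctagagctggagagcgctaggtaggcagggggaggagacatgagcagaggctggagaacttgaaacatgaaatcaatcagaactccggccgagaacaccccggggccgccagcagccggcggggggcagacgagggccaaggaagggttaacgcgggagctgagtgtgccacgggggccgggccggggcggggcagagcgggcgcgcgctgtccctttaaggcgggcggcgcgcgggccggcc
Fzd10: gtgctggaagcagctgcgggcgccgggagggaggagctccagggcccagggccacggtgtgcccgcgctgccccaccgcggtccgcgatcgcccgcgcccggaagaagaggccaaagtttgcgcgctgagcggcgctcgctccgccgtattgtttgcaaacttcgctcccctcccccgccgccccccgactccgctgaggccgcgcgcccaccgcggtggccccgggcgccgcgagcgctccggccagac
Fzd1: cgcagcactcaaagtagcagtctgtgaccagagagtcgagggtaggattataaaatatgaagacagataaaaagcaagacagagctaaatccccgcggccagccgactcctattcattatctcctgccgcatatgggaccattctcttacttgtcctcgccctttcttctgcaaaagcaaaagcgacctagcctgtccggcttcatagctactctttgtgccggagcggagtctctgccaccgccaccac

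Against MEF, each pluripotent array showed higher levels of the nuclear factors Tcf7 and Lef1, the receptors Fzd9 and Fzd10, the ligand Wnt6, Porcn, Axin2 and Rspo1. Each also showed lower levels of the receptors Fzd1 and Fzd2, Lgr5, Rspo3, Wnt9a and Dkk3. In iPS-OSH, 16 of the 54 genes compared were higher than in MEF and 10 lower, where 12.6% and 23.4% of all genes compared were. In iPS-J, 12 of 53 were higher and 17 lower, against 16.1% and 23.6% of all genes. In ESC, 15 of 53 were higher and 13 lower, against 21.8% and 16.5%. As shares, the Wnt pathway genes stood at 29.6%, 22.6% and 28.3% higher and at 18.5%, 32.1% and 24.5% lower in the same order. Their median difference was -0.31, -0.37 and -0.23, beside -0.32, -0.19 and 0.11 over all genes. The scaling moved these medians. On spike-in probes the medians over all genes became -0.44, -0.49 and -0.35, and in the deposited values without further scaling -0.49, -0.69 and -0.29. Over probes detected on all 4 arrays they were -0.26, -0.14 and 0.36, and the median of the Wnt pathway genes in ESC changed sign, to 0.02 there and to 0.12 with normexp background correction. ESC then had 13 higher and 19 lower than MEF by spike-in probes, and iPS-J 10 higher and 25 lower without scaling. These comparisons share the MEF array and are given side by side. In bulk RNA, fewer cells of a type and less RNA per cell cannot be told apart.

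**Figure D1:**
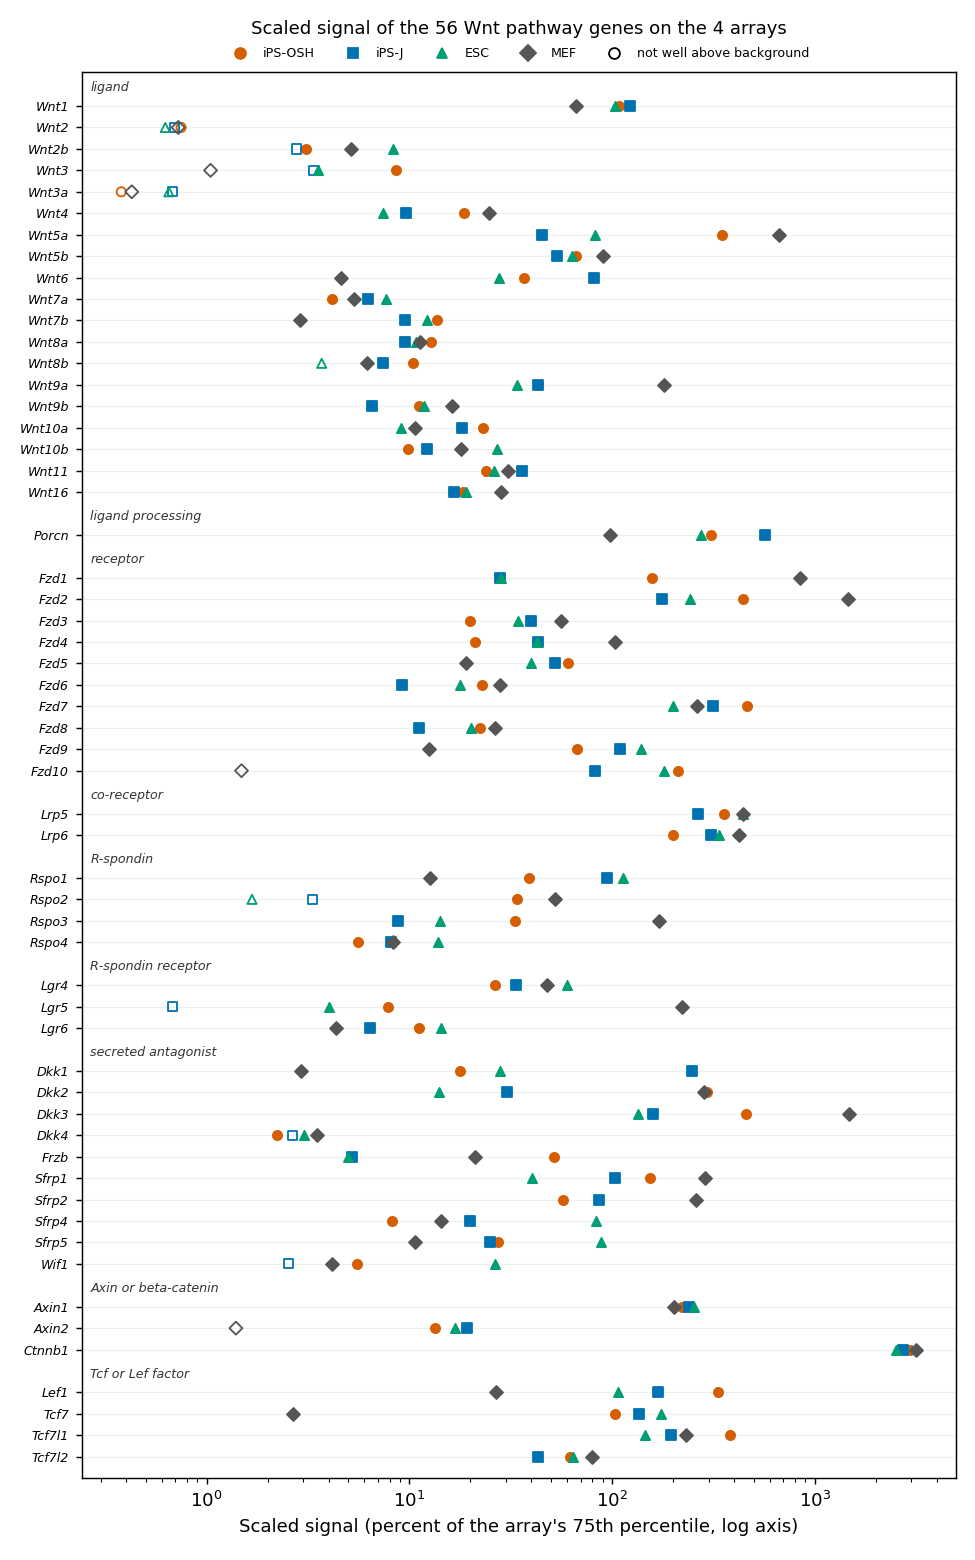
Scaled signal (percent of the 75th percentile of each array, log axis) of the 56 Wnt pathway genes, grouped by role, with 1 point per array and open points where the probe was not well above background. Ctnnb1 and Axin1 lie close together on all 4 arrays, while Tcf7, Fzd10, Fzd1, Lgr5, Dkk1 and Dkk2 are spread widely.

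Among the 19 Wnt ligands, most did not pass 2-fold against MEF, as was true of all genes. Within 2-fold were 12 of 17 ligands compared in iPS-OSH, 10 of 16 in iPS-J and 12 of 17 in ESC. Over all genes it was 20098 of 31394, 18560 of 30754 and 19450 of 31521 in the same order. Of the ligands measured on both arrays, Wnt5a, Wnt6 and Wnt9a differed most in iPS-J and ESC, and Wnt6, Wnt7b and Wnt9a in iPS-OSH. Wnt6, a ligand of epithelia, read 36.9 in iPS-OSH, 81.3 in iPS-J, 27.7 in ESC and 4.61 in MEF. It was lowest in MEF and highest in iPS-J, with differences from MEF of 2.9998 (iPS-OSH), 4.14 (iPS-J) and 2.59 (ESC). With detection set above the ERCC control probes, external RNA controls on the array, that of ESC was at least 0.83, a bound under 2-fold. Wnt5a, the main ligand of β-catenin-independent signalling, was instead highest in MEF, with 351 in iPS-OSH, 45.2 in iPS-J, 82.7 in ESC and 663 in MEF. iPS-OSH stood close to MEF, within 2-fold at -0.92, while iPS-J and ESC were 14.7-fold and 8.02-fold lower than MEF. Wnt9a was 42.9 in iPS-OSH, 43.3 in iPS-J, 33.8 in ESC and 181 in MEF, and the pluripotent arrays differed from MEF by nearly equal amounts (-2.08 (iPS-OSH), -2.07 (iPS-J) and -2.42 (ESC)).

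Of the dimmer ligands, Wnt7b was 13.8 in iPS-OSH, 9.49 in iPS-J, 12.3 in ESC and 2.88 in MEF, higher in all pluripotent arrays by 2.26, 1.72 and 2.09 in that order. With normexp the iPS-J and ESC differences were 0.91 and 0.94, under 2-fold, and with detection above the ERCC control probes iPS-OSH had a bound of 0. Wnt4 was lower than MEF in iPS-J (-1.36) and ESC (-1.74) and within 2-fold in iPS-OSH (-0.42). With normexp Wnt4 was -0.77 in iPS-J and -0.99 in ESC, under 2-fold. Wnt3, a ligand that activates β-catenin, was 8.56 in iPS-OSH, 3.38 in iPS-J (not well above background), 3.56 in ESC and 1.04 in MEF (not well above background). It was therefore at least 3.996-fold higher in iPS-OSH than in MEF, and in ESC it was only just above the limit of measurement. With detection above the ERCC control probes the bound in iPS-OSH was 0. Wnt3 could not be compared between iPS-J and MEF, where neither signal was well above background. Wnt10a was higher than MEF in iPS-OSH alone of the 3 comparisons (1.11, with 0.76 in iPS-J and -0.23 in ESC), and Wnt9b lower in iPS-J alone (-1.33, with -0.55 in iPS-OSH and -0.47 in ESC), and neither contrast between populations was tested. Wnt1, Wnt2b, Wnt5b, Wnt7a, Wnt8a, Wnt8b, Wnt10b, Wnt11 and Wnt16 passed 2-fold against MEF in no population by their brightest probes, although for Wnt2b in iPS-J and Wnt8b in ESC only a bound could be had. The largest measured difference among these was that of Wnt1, at 0.89 in iPS-J. The dimmer probes of Wnt16 and Wnt8b disagreed with the brighter ones. That of Wnt16 gave -2.79 (iPS-OSH), at least -2.59 (iPS-J) and -2.02 (ESC), where the brighter gave -0.63 (iPS-OSH), -0.76 (iPS-J) and -0.57 (ESC), and that of Wnt8b gave -1.37 (iPS-OSH), -1.15 (iPS-J) and -0.15 (ESC), where the brighter gave 0.74 (iPS-OSH), 0.26 (iPS-J) and at least -0.75 (ESC). Wnt3a, a ligand much used to activate the pathway in culture, had scaled signals from 0.379 to 0.677, not well above background on any array, and Wnt2 from 0.625 to 0.748.

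Porcn, the enzyme that adds the lipid every Wnt needs for secretion, was 309 in iPS-OSH, 568 in iPS-J, 274 in ESC and 97.8 in MEF. It was higher than MEF by 1.66 (iPS-OSH), 2.54 (iPS-J) and 1.49 (ESC), and its level in iPS-J was 2.07-fold that in ESC. Under other scalings the difference of iPS-J from ESC was as small as 0.84, under 2-fold.

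The Frizzled receptors divided between those higher and those lower than MEF. Fzd10 (probe at mm9 chr5:129109798-129109857) was 211 in iPS-OSH, 82.8 in iPS-J, 179.5 in ESC and 1.49 in MEF (not well above background). It was at least 98.5-fold higher than MEF in iPS-OSH, at least 38.6-fold in iPS-J and at least 83.8-fold in ESC, and its MEF signal lay below the limit of measurement. Under other scalings and background correction these bounds were as low as 5.32 (iPS-OSH), 4.11 (iPS-J) and 5.22 (ESC) on the log2 scale. Fzd9 was 66.9 in iPS-OSH, 110.1 in iPS-J, 139 in ESC and 12.5 in MEF, with differences from MEF of 2.42 (iPS-OSH), 3.14 (iPS-J) and 3.48 (ESC). Fzd5, a receptor for several β-catenin-activating ligands, was 60.8 in iPS-OSH, 52.3 in iPS-J, 39.96 in ESC and 19.1 in MEF, higher by 1.67, 1.45 and 1.06. Its dimmer probe went the same way but stayed within 2-fold, at 0.76, 0.48 and 0.34.

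Fzd1 (mm9 chr5:4754003-4754062) was 158 in iPS-OSH, 27.9 in iPS-J, 28.4 in ESC and 850.0 in MEF. MEF was highest, iPS-OSH intermediate, and iPS-J and ESC were almost equal and 30.5-fold and 29.9-fold lower than MEF. Fzd2 was 443 in iPS-OSH, 176 in iPS-J, 243 in ESC and 1455 in MEF, lower than MEF by the differences -1.72 (iPS-OSH), -3.05 (iPS-J) and -2.58 (ESC), and its dimmer probe gave -3.41 (iPS-OSH), -4.73 (iPS-J) and at least -5.38 (ESC). Fzd4, also a receptor for the non-Wnt ligand norrin, was 21.2 in iPS-OSH, 42.98 in iPS-J, 42.5 in ESC and 103 in MEF, lower by -2.28, -1.26 and -1.28. Fzd3 was lower in iPS-OSH (-1.49), and Fzd6 and Fzd8 in iPS-J (-1.61 and -1.25), each within 2-fold of MEF on the other pluripotent arrays.

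For Fzd7, a receptor prominent in stem cells, the probes disagreed. The brighter probe, at mm9 chr1:59543192-59543251, read 464 in iPS-OSH, 315 in iPS-J, 199.7 in ESC and 261 in MEF, within 2-fold of MEF throughout (0.83 (iPS-OSH), 0.27 (iPS-J) and -0.39 (ESC)). The dimmer one, printed above beside its Fzd2 counterpart, read 19.1 in iPS-OSH, 11.4 in iPS-J, 9.96 in ESC and 106 in MEF. It gave differences from MEF of -2.48 (iPS-OSH), -3.23 (iPS-J) and -3.42 (ESC), close in direction to those of the Fzd2 probe that shares 42 bases with it. Whether RNA of one gene binds the probe of the other was not tested, and the difference of Fzd7 from MEF has no settled direction here.

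**Figure D2:**
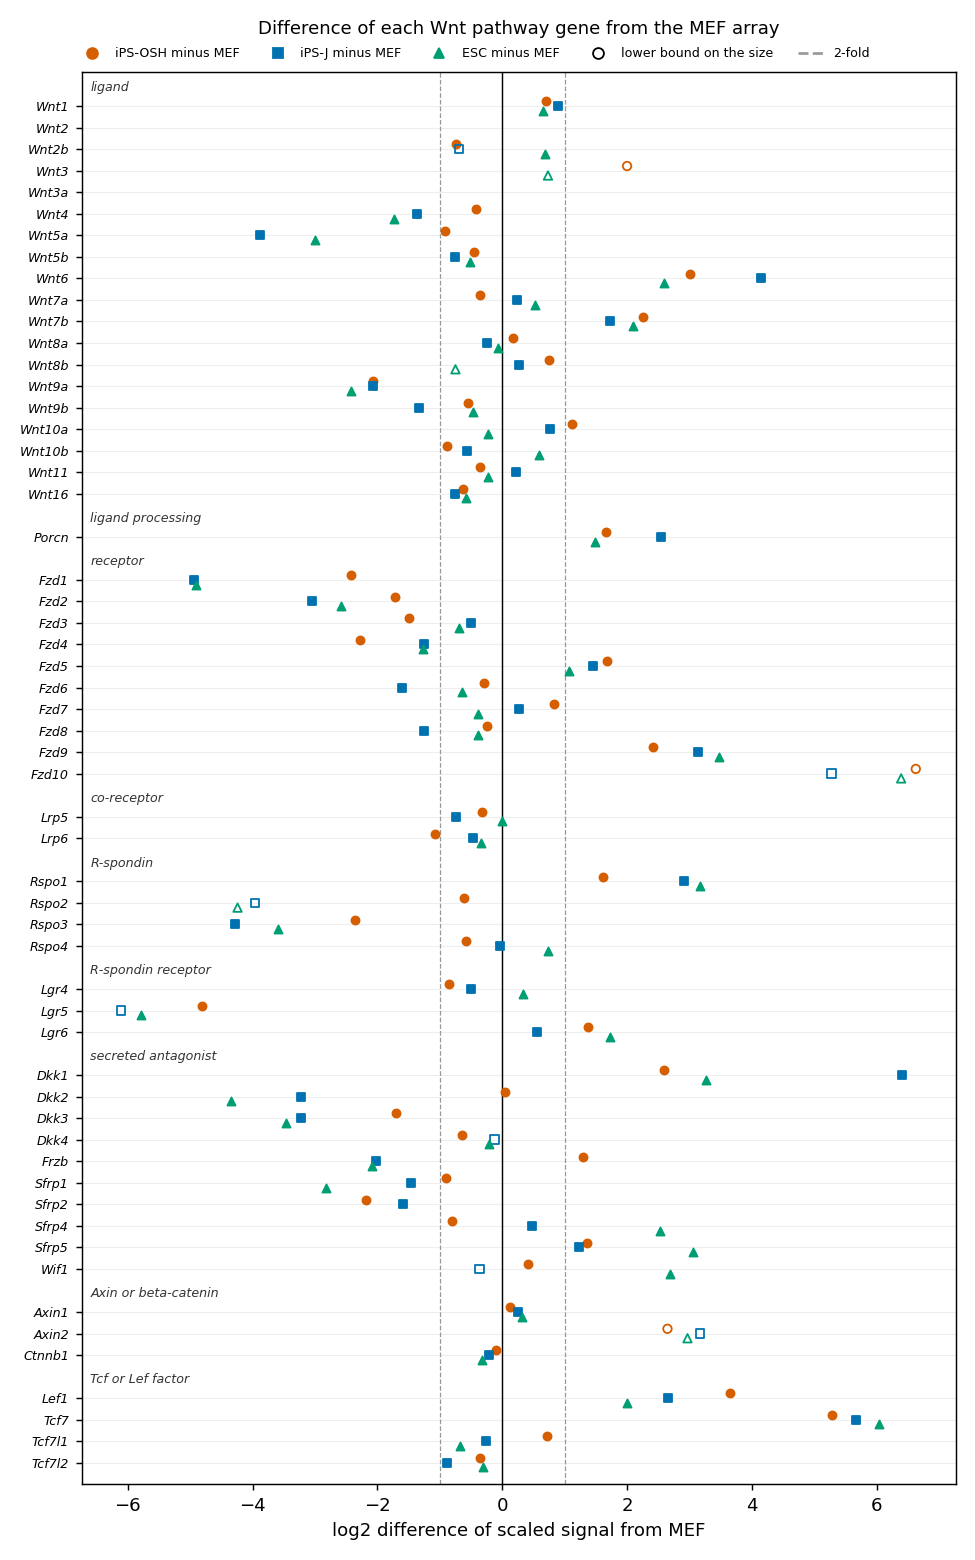
Differences from MEF (log2 of scaled signal) for the 54 Wnt pathway genes well above background on at least 1 array, grouped by role, with 1 point for each pluripotent array, open points for lower bounds on the size and dashed lines at 2-fold. Tcf7 and Fzd10 lie far to the right on all 3 pluripotent arrays and Lgr5 far to the left, while Dkk2 and Frzb of iPS-OSH lie apart from those of iPS-J and ESC.

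The co-receptors and the R-spondin receptors behaved unlike each other. Lrp5 was 357 in iPS-OSH, 265 in iPS-J, 445 in ESC and 445 in MEF, within 2-fold of MEF on every pluripotent array. Lrp6 was 200.4 in iPS-OSH, 307 in iPS-J, 336 in ESC and 425 in MEF, and iPS-OSH was lower than MEF by -1.08, but the dimmer Lrp6 probe gave 0.05 there. The levels of the co-receptors thus lay close to those in MEF, apart from that 1 probe in iPS-OSH.

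Lgr5, a stem cell marker of the intestine and a receptor for R-spondins (mm9 chr10:114887403-114887462), was 7.84 in iPS-OSH, 0.677 in iPS-J (not well above background), 4.005 in ESC and 220.3 in MEF. MEF was far above every pluripotent array, 28.1-fold above iPS-OSH, at least 68.7-fold above iPS-J and 54.997-fold above ESC. Under other scalings and background correction the differences from MEF were as small as -4.06 (iPS-OSH), -4.59 (iPS-J) and -4.52 (ESC) on the log2 scale. A further Lgr5 probe was not well above background on any array, so that the difference rests on 1 probe. Lgr4 was 26.3 in iPS-OSH, 33.6 in iPS-J, 60.2 in ESC and 47.6 in MEF, within 2-fold of MEF throughout. Lgr6 was dim at 11.2 in iPS-OSH, 6.404 in iPS-J, 14.4 in ESC and 4.35 in MEF, higher than MEF in iPS-OSH (1.37) and ESC (1.73) but not by 2-fold in iPS-J (0.56).

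The R-spondins themselves moved in opposite directions. Rspo1 was 38.8 in iPS-OSH, 94.4 in iPS-J, 114 in ESC and 12.6 in MEF, higher than MEF by 1.62 (iPS-OSH), 2.903 (iPS-J) and 3.17 (ESC). Rspo3 was 33.2 in iPS-OSH, 8.77 in iPS-J, 14.2 in ESC and 171 in MEF, lower by -2.37 (iPS-OSH), -4.29 (iPS-J) and -3.59 (ESC). Rspo2 was 34.2 in iPS-OSH, 3.33 in iPS-J (not well above background), 1.67 in ESC (not well above background) and 52.05 in MEF, so that iPS-OSH held a level near that of MEF (-0.61) while iPS-J was at least 15.6-fold and ESC at least 18.9-fold lower. Rspo4 stayed dim, between 5.58 and 13.9, and within 2-fold of MEF.

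The secreted antagonists showed the widest contrasts between the pluripotent lines. Dkk1, which blocks Lrp5 and Lrp6 and is itself a target of the pathway (mm9 chr19:30621424-30621483), was 17.7 in iPS-OSH, 249 in iPS-J, 28.04 in ESC and 2.93 in MEF. It was higher than MEF by 2.59 (iPS-OSH), 6.41 (iPS-J) and 3.26 (ESC), but with detection set above the ERCC control probes, external RNA controls on the array, by at least 0.18 in iPS-OSH and at least 0.85 in ESC, both under 2-fold. In iPS-J it was 8.89-fold higher than in ESC and 14.1-fold higher than in iPS-OSH. Dkk2, a relative that also binds the co-receptors, had another order, with 294 in iPS-OSH, 30.4 in iPS-J, 14.03 in ESC and 285 in MEF. iPS-OSH and MEF were nearly equal (0.04), and iPS-J and ESC were 9.37-fold and 20.3-fold lower than MEF. Dkk3, the divergent member of the family, was 458 in iPS-OSH, 159.9 in iPS-J, 135 in ESC and 1485 in MEF, lower than MEF by -1.697 (iPS-OSH), -3.22 (iPS-J) and -3.46 (ESC). Dkk4 stayed near the limit of measurement on every array, from 2.24 to 3.5000.

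Of the antagonists that bind Wnt directly, Frzb was 52.02 in iPS-OSH, 5.22 in iPS-J, 4.98 in ESC and 21.2 in MEF. It was higher than MEF in iPS-OSH (1.29) and lower in iPS-J (-2.02) and ESC (-2.09). With normexp background correction the iPS-OSH difference was 0.94, under 2-fold, and with detection above the ERCC control probes that of ESC was at least -0.08. Sfrp1 was 153 in iPS-OSH, 104 in iPS-J, 40.5 in ESC and 286 in MEF, highest in MEF and lowest in ESC, with differences from MEF of -0.8999 (iPS-OSH), -1.47 (iPS-J) and -2.82 (ESC). Sfrp2 was 57.04 in iPS-OSH, 85.9 in iPS-J, no value in ESC and 259.7 in MEF, because its spot was an outlier on the ESC array and was left out. It was lower than MEF by -2.19 in iPS-OSH and -1.596 in iPS-J and was not compared with ESC.

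Sfrp4, Sfrp5 and Wif1 were highest in ESC. Sfrp4 was 8.25 in iPS-OSH, 19.9 in iPS-J, 82.9 in ESC and 14.4 in MEF, and only ESC differed from MEF by 2-fold or more (2.53). Sfrp5 was 27.3 in iPS-OSH, 24.99 in iPS-J, 88.4 in ESC and 10.7 in MEF, higher than MEF by 1.35 (iPS-OSH), 1.23 (iPS-J) and 3.05 (ESC). Wif1, which is unrelated to the Sfrp family in sequence, was 5.51 in iPS-OSH, 2.53 in iPS-J (not well above background), 26.6 in ESC and 4.13 in MEF, higher in ESC than in MEF by 2.69. With detection above the ERCC control probes Sfrp5 was higher by at least 0.81 in iPS-OSH and at least 0.68 in iPS-J, and Wif1 by at least 0.77 in ESC. These bounds do not reach 2-fold. ESC is the 129SV population and was scanned alone, and neither can be told apart from the cell line in these 3 genes.

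Inside the cell, the shared core of the pathway was level and its feedback inhibitor was not. Ctnnb1, encoding β-catenin, was 2947 in iPS-OSH, 2726 in iPS-J, 2519 in ESC and 3154 in MEF, with all differences within 2-fold (-0.098 (iPS-OSH), -0.21 (iPS-J) and -0.32 (ESC)). Its probe was printed on 2 spots, which read 2906 and 2988 in iPS-OSH, 2777 and 2676 in iPS-J, 2669 and 2377 in ESC, and 3070.3 and 3240 in MEF. Axin1, the constitutive scaffold of the destruction complex, was 220.3 in iPS-OSH, 239.5 in iPS-J, 252 in ESC and 202 in MEF. Axin2, its inducible counterpart and a general Wnt target, was 13.4 in iPS-OSH, 19.2 in iPS-J, 16.8 in ESC and 1.39 in MEF (not well above background). It was at least 6.26-fold higher than MEF in iPS-OSH, at least 8.97-fold in iPS-J and at least 7.82-fold in ESC. These bounds depend on the limit of detection: set above the ERCC control probes, the bound was 0 in iPS-OSH and 0.3035 on the log2 scale in iPS-J, and ESC could not be compared. The dimmer Axin2 probe went the same way, by 1.35 (iPS-OSH), 1.16 (iPS-J) and 1.89 (ESC), and the pluripotent arrays differed from each other by less than 2-fold. RNA level gives no measure of β-catenin protein, which is the regulated form.

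Tcf7 showed the largest measured difference from MEF among these 56 genes in iPS-OSH and ESC. Tcf7, also called Tcf1 (mm9 chr11:52066114-52066173), was 104 in iPS-OSH, 136 in iPS-J, 175 in ESC and 2.67 in MEF. It was 38.7-fold higher than MEF in iPS-OSH, 50.8-fold in iPS-J and 65.6-fold in ESC, and its dimmer probe gave at least 2.76 (iPS-OSH), at least 3.13 (iPS-J) and at least 3.39 (ESC). The unscaled MEF signal of the brighter probe, 47.2, was near the lowest well above background on that array, 37.8. Under other scalings and background correction its differences were as small as 4.08 (iPS-OSH), 4.43 (iPS-J) and 4.80 (ESC) on the log2 scale. Lef1 was 335 in iPS-OSH, 169 in iPS-J, 108 in ESC and 26.8 in MEF, higher than MEF by 3.64 (iPS-OSH), 2.66 (iPS-J) and 2.01 (ESC), and its dimmer probe gave 3.23 (iPS-OSH), 1.53 (iPS-J) and 1.28 (ESC). The order of Lef1 among the pluripotent arrays, from iPS-OSH down to ESC, was the reverse of that of Tcf7, although for neither gene were any neighbouring levels 2-fold apart.

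Tcf7l1, also called Tcf3, the main repressor of the family in ESC, was 382 in iPS-OSH, 194 in iPS-J, 145 in ESC and 232 in MEF, within 2-fold of MEF on every array (0.72 (iPS-OSH), -0.26 (iPS-J) and -0.68 (ESC)). Tcf7l2, also called Tcf4, was 62.3 in iPS-OSH, 43.2 in iPS-J, 64.2 in ESC and 79.5 in MEF, likewise within 2-fold (-0.35 (iPS-OSH), -0.88 (iPS-J) and -0.31 (ESC)). Of its dimmer probes, 1 gave 0.38 (iPS-OSH), -0.604 (iPS-J) and -1.01 (ESC) and the dimmest -0.44 (iPS-OSH), -1.28 (iPS-J) and at least -2.93 (ESC), so that ESC was lower than MEF by 2-fold or more on both of these but not on the brightest.

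**Figure D3:**
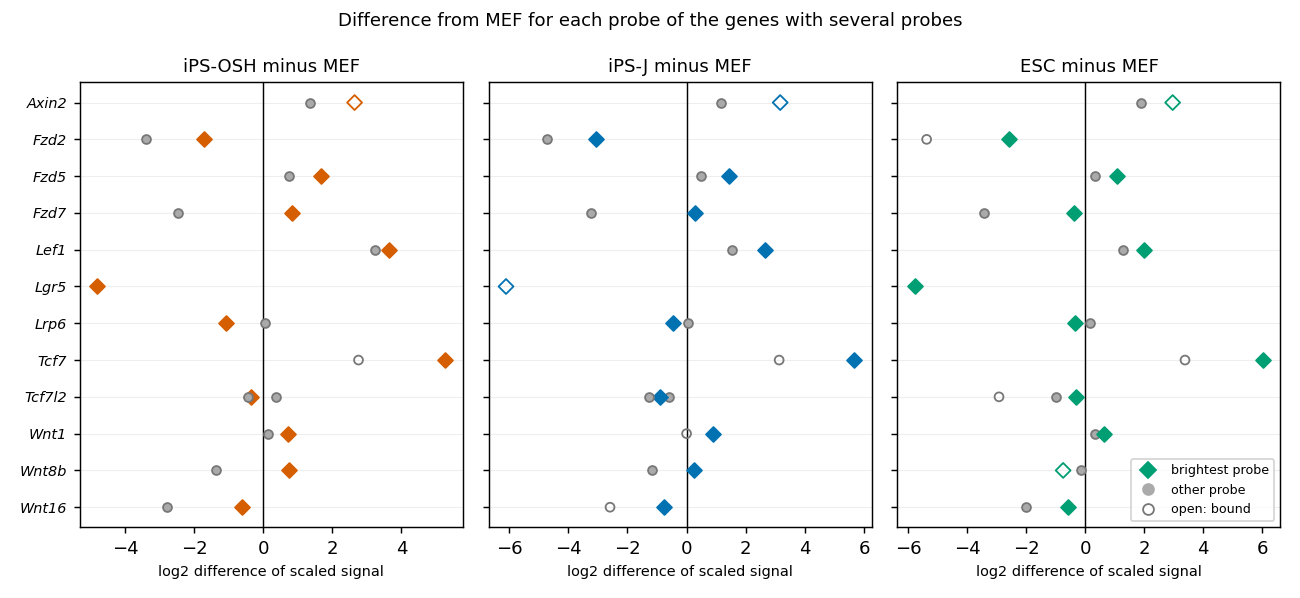
Differences from MEF (log2 of scaled signal) given by each probe of the 12 genes with more than 1 probe, in panels for iPS-OSH, iPS-J and ESC, with diamonds for the brightest probe, circles for the others and open symbols for bounds. Probes of Axin2, Fzd2, Fzd5, Lef1 and Tcf7 lie on 1 side of 0 in each panel, and those of Fzd7 lie apart.

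Where a gene was counted as different from MEF, its other detected probes mostly went the same way. They did so for 5 of 6 such probes in iPS-OSH against MEF (the exception was Lrp6), 5 of 5 in iPS-J and 5 of 5 in ESC. Of these, 4 in each comparison were also 2-fold different or more. Against ESC such probes went the same way in 2 of 3 cases in iPS-OSH and 0 of 1 in iPS-J. Wnt8b was the exception in both, and between the iPS lines it was 1 of 1. Genes whose brightest probe was within 2-fold do not enter these counts. Fzd7 and Wnt16, whose probes disagreed against MEF, are therefore not in the counts against MEF.

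Set against ESC, iPS-OSH held higher levels of several genes that were high in MEF. In iPS-OSH 15 of 53 genes were higher than in ESC and 10 lower (28.3% and 18.9%), where 8.73% and 26.6% of all genes were. The median was 0.15, beside -0.28 over all genes. The largest differences upward were Dkk2 (20.95-fold), Frzb (10.4-fold) and Fzd1 (5.57-fold), with Rspo2 at least 12.4-fold higher. Wnt5a (2.08), Sfrp1 (1.92), Dkk3 (1.76), Lef1 (1.64), Tcf7l1 (1.399), Wnt10a (1.34), Wnt4 (1.32), Wnt3 (1.27), Rspo3 (1.23) and Fzd7 (1.22) were also higher. With detection above the ERCC control probes only bounds were left, of at least 0.77 for Rspo2, 0.73 for Rspo3 and 0.21 for Wnt10a, and of 0 for Wnt3 and Wnt4. With normexp Wnt10a was 0.87, Wnt4 0.73 and Wnt3 0.45, all under 2-fold. Downward, Sfrp4 was 10.1-fold, Wif1 4.83-fold and Sfrp5 3.24-fold lower. Rspo1 (-1.55), Wnt10b (-1.47), Wnt2b (-1.42), Rspo4 (-1.31), Lgr4 (-1.19), Fzd9 (-1.06) and Fzd4 (-1.004) made up the rest. By quantile normalization Lgr4 and Wnt10b were -0.94, Wnt2b -0.77, Rspo4 -0.66 and Fzd4 -0.63, all under 2-fold. On spike-in probes Rspo4 was -0.94, Lgr4 -0.82, Fzd9 -0.68 and Fzd4 -0.63, also under it. Rspo4 and Wnt2b had signals under 200 on both arrays. Scaling on spike-in probes gave 17 higher and 6 lower, quantile normalization 15 and 5, and the unscaled deposited values 17 and 7.

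iPS-J was closer to ESC. Of 52 genes, 6 were higher and 7 lower in iPS-J (11.5% and 13.5%), against 5.38% and 23.0% of all genes, and the median was -0.16, beside -0.18 over all genes. Dkk1 was 8.89-fold, Wnt6 2.94-fold, Sfrp1 2.56-fold, Dkk2 2.17-fold and Porcn 2.07-fold higher. Scaled over probes detected on all 4 arrays, Dkk2 was 0.91 and Porcn 0.84 on the log2 scale, under 2-fold. Sfrp4 (-2.06), Sfrp5 (-1.82), Lgr6 (-1.17), Wnt10b (-1.15), Fzd10 (-1.12), Wif1 (at least -3.05) and Wnt2b (at least -1.37) were lower. By quantile normalization Lgr6 was -0.42, Wnt10b -0.57 and Wnt2b at least -0.45. Fzd10 was -0.93 on spike-in probes. The remaining gene counted as higher, Wnt8b, was 10.4 in iPS-OSH, 7.45 in iPS-J, 3.696 in ESC (not well above background) and 6.22 in MEF by its brighter probe, and its other probe went the opposite way (-1.01). Its direction is not settled here, nor is it in iPS-OSH against ESC, where it was counted as higher too (at least 1.49, and -1.23 by the other probe). The split of 6 against 7 moved to 3 and 12 when scaled over probes detected on all 4 arrays, to 7 and 4 on spike-in probes, to 6 and 4 by quantile normalization and to 4 and 8 without scaling.

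The iPS lines, which share strain, medium and scan session, differed in ligands, receptors and antagonists. Of 54 genes, 13 were higher and 5 lower in iPS-OSH than in iPS-J (24.1% and 9.26%), against 7.86% and 7.32% of all genes. The median was 0.33, beside 0.00 over all genes. Frzb was 9.96-fold, Dkk2 9.66-fold, Wnt5a 7.77-fold and Rspo2 at least 10.2-fold higher in iPS-OSH. Fzd1 (2.51), Rspo3 (1.92), Dkk3 (1.52), Fzd10 (1.35), Wnt3 (at least 1.34), Fzd2 (1.33), Fzd6 (1.32), Lgr5 (at least 1.29) and Fzd8 (1.01) followed. With normexp Wnt3 was at least 0.43, Lgr5 at least 0.53, Fzd6 0.94 and Fzd8 0.76, values or bounds under 2-fold. With detection above the ERCC control probes Wnt3 and Lgr5 had bounds of 0. In the other direction Dkk1 (-3.82), Rspo1 (-1.28), Sfrp4 (-1.27), Wnt6 (-1.14) and Fzd4 (-1.02) were lower in iPS-OSH. Without scaling Rspo1 was -0.95, Sfrp4 -0.94, Wnt6 -0.81 and Fzd4 -0.69, all under 2-fold. Of the 10 Frizzled receptors, 5 were thus higher in iPS-OSH, and no Tcf or Lef factor passed 2-fold by its brightest probe. Lef1 (0.98) and Tcf7l1 (0.97) lay just under it and reached 1.32 and 1.31 under other scalings, and the dimmer Lef1 probe gave 1.703. Spike-in scaling gave 16 higher and 3 lower, and the unscaled values 19 and 1.

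**Figure D4:**
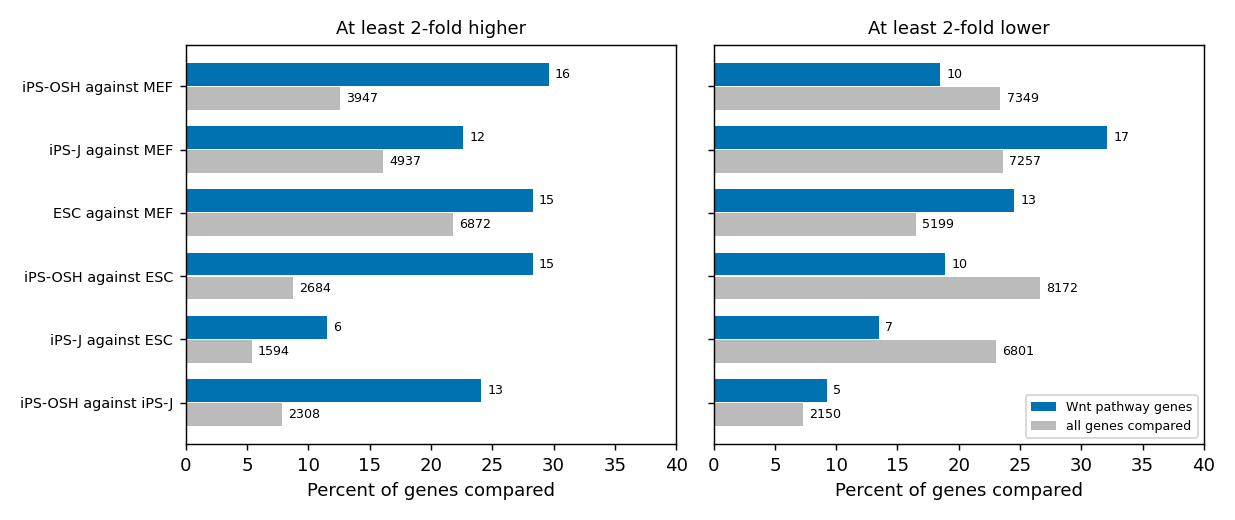
Percent of genes at least 2-fold higher (left) or lower (right) in each of the 6 comparisons, for the Wnt pathway genes (blue) and for all genes compared (grey), with the number of genes beside each bar. The share of Wnt pathway genes higher in iPS-OSH against ESC was 28.3% beside 8.73% of all genes.

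Markers of other cell types also differed between these arrays. All 9 pluripotency markers, among them Pou5f1, Sox2 and Nanog, were higher than in MEF on each pluripotent array, with scaled signals of 668 to 12142 in iPS-OSH, 956 to 19325 in iPS-J, 566 to 15043 in ESC and 0.84 to 116 in MEF. Of 9 fibroblast markers, which include collagens and Thy1, all were well above background on all 4 arrays, so none was at 0. Their summed scaled signal was 29883 in iPS-OSH, 5705 in iPS-J, 4473 in ESC and 98866 in MEF. In iPS-OSH 9 of 9 were higher than in ESC and 8 of 9 higher than in iPS-J. Dcn stood at 3936 in iPS-OSH, 333 in iPS-J, 205 in ESC and 1556 in MEF, and Twist2 at 1287 in iPS-OSH, 94.3 in iPS-J, 64.7 in ESC and 1760.1 in MEF. Wnt5a, Fzd1, Rspo2, Rspo3, Dkk2 and Dkk3 were picked as higher in iPS-OSH than in both other pluripotent arrays and high in MEF. They share the order of most of these markers by that choice. Frzb, like Dcn, was higher in iPS-OSH than in MEF. Fzd4, also highest in MEF, was lower in iPS-OSH than in iPS-J by -1.02, but by -0.83 on spike-in probes and -0.69 without scaling. Fzd3 (-0.99) and Sfrp2 (-0.59), likewise highest in MEF where measured, were within 2-fold between the iPS lines. Fzd3 was also within 2-fold of MEF in iPS-J and ESC. Wnt9a was nearly equal in the iPS lines. The part of fibroblast RNA in these results was not tested.

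Of 9 markers of primitive and visceral endoderm, 8 were higher in iPS-J than in iPS-OSH and 7 higher than in ESC. Their summed scaled signal was 735 in iPS-OSH, 13861 in iPS-J, 1969 in ESC and 205 in MEF, and Afp was not well above background on any pluripotent array. Gata4 was 45.9 in iPS-OSH, 897 in iPS-J, 62.95 in ESC and 17.1 in MEF, and Cubn 78.7 in iPS-OSH, 3214 in iPS-J, 265 in ESC and 32.5 in MEF. Dkk1, and to a lesser degree Wnt6 and Porcn, were highest on the array where these markers were, and the part of endoderm RNA in those levels was not tested. Summed over 4 trophoblast markers the signal was 63.8, 114.8, 86.2 and 22.03 in the order iPS-OSH, iPS-J, ESC and MEF, and over 4 macrophage and blood markers 579, 668, 449 and 867. Over 3 neural markers it was 389.6, 227, 239 and 836 in the same order. The neural sum was mostly Nes, at 347 in iPS-OSH, 180 in iPS-J, 184 in ESC and 821 in MEF. The other neural markers, Pax6 and Sox1, were over 2-fold higher than MEF on each pluripotent array by their brightest probes.

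**Figure D5:**
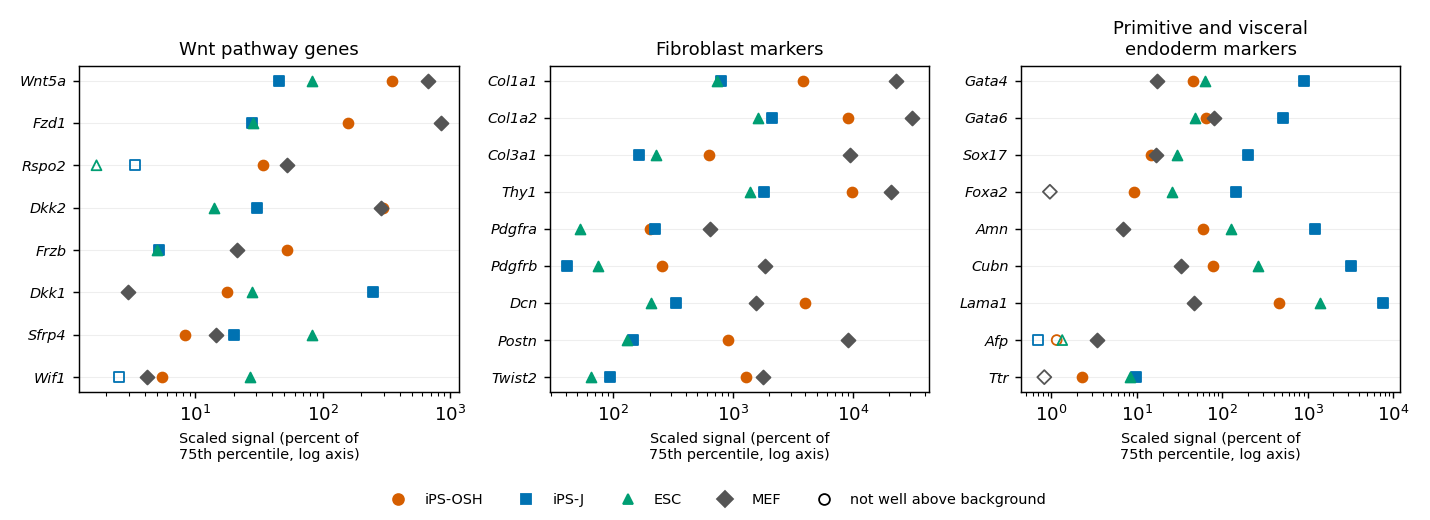
Scaled signal (percent of the 75th percentile, log axis) of 8 Wnt pathway genes, 9 fibroblast markers and 9 markers of primitive and visceral endoderm, with 1 point per array and open points where not well above background. iPS-OSH lies between MEF and the other pluripotent arrays for most fibroblast markers and for Wnt5a, Fzd1 and Rspo2, and iPS-J lies to the right for Dkk1 and for most endoderm markers.

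Other genes of the pathway were read from 6 lists, which share 4 genes. Each count against MEF below stands beside 12.6% higher and 23.4% lower of all genes in iPS-OSH, 16.1% and 23.6% in iPS-J, and 21.8% and 16.5% in ESC. Among 19 target genes of canonical signalling outside the members, iPS-OSH had 5 higher and 5 lower than MEF of 18 compared, iPS-J 4 and 7 of 16, and ESC 6 and 7 of 17. Cdx1, a homeobox gene of the posterior embryo, was 393 in iPS-OSH, 193 in iPS-J, 68.7 in ESC and 10.1 in MEF. Ccn4, deposited as Wisp1 and expressed in connective tissue, was 536 in iPS-OSH, 63.5 in iPS-J, 61.2 in ESC and 4522 in MEF, and Ccn5, deposited as Wisp2, was 249 in iPS-OSH, 43.1 in iPS-J, 37.7 in ESC and 1098 in MEF. Cdx1 was thus higher on each pluripotent array than in MEF (5.29 (iPS-OSH), 4.26 (iPS-J) and 2.77 (ESC)), and Ccn4 lower (-3.08 (iPS-OSH), -6.15 (iPS-J) and -6.21 (ESC)). Against ESC, 9 of 18 targets were higher and 2 lower in iPS-OSH, beside 8.73% and 26.6% of all genes, and against iPS-J 9 and 1 of 18, beside 7.86% and 7.32%. Of the 9 higher in iPS-OSH than in ESC, Cd44 (4.07), Ccn4 (3.13), Fst (3.13) and Ccn5 (2.73) were highest in MEF. The cell cycle gene Ccnd1 (2.85), Myc (2.75), Cdx1 (2.52), the mesoderm gene T (at least 1.93) and Sp5 (1.83) were highest in iPS-OSH. The 2 lower than in ESC were Msx1 (-2.08) and Nkd1 (-1.72). Among the 7 within 2-fold of ESC were Rnf43 (-0.39), Znrf3 (-0.59) and Notum (0.45). The 1 lower than in iPS-J was Rnf43 (-1.86). Of these targets, those other than Cdx1, Ccn4 and Ccn5 are named after their values were seen.

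Of 15 genes of Wnt secretion and extracellular control, 14 were on the array by name. Higher and lower than MEF were 2 and 5 of 12 in iPS-OSH, 2 and 6 of 12 in iPS-J, and 5 and 5 of 13 in ESC. Wls, the carrier that takes Wnt proteins to the cell surface, was 558 in iPS-OSH, 143 in iPS-J, 89.5 in ESC and 2338 in MEF. Cthrc1, a secreted collagen-like protein, was 131 in iPS-OSH, 84.7 in iPS-J, 64.1 in ESC and 1635 in MEF, and the proteoglycan Gpc4 195 in iPS-OSH, 56.3 in iPS-J, 22.4 in ESC and 396 in MEF. By their brightest probes all 3 were highest in MEF, and Wls differed from MEF by -2.07 (iPS-OSH), -4.03 (iPS-J) and -4.71 (ESC). The other Gpc4 probe gave -0.99 (iPS-OSH), -1.11 (iPS-J) and 0.07 (ESC), where the brightest gave -1.02 (iPS-OSH), -2.81 (iPS-J) and -4.14 (ESC).

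The cytoplasmic core, 19 genes of the destruction complex and its regulators, lay mostly within 2-fold of MEF. Higher and lower than MEF were 0 and 4 in iPS-OSH, 0 and 5 in iPS-J, and 1 and 5 in ESC. Dact1, a regulator of Dishevelled, was 45.98 in iPS-OSH, 45.1 in iPS-J, 42.3 in ESC and 128 in MEF, Nkd2, a feedback inhibitor, 236 in iPS-OSH, 93.4 in iPS-J, 118 in ESC and 284 in MEF, and Apc2, a relative of the scaffold Apc, 92.9 in iPS-OSH, 42.1 in iPS-J, 72.6 in ESC and 126 in MEF. Of 13 nuclear cofactors, 1 was higher and 1 lower in iPS-OSH, 1 and 2 in iPS-J, and 2 and 2 in ESC. The co-repressor Tle4 was 141 in iPS-OSH, 83.9 in iPS-J, 53.8 in ESC and 13.5 in MEF, the kinase Hipk2 103 in iPS-OSH, 41.8 in iPS-J, 47.5 in ESC and 146 in MEF and the chromatin reader Pygo1 2.85 in iPS-OSH, 6.48 in iPS-J, 7.25 in ESC and 9.46 in MEF. Tle4 alone of these 3 was higher than MEF on the pluripotent arrays (3.39 (iPS-OSH), 2.64 (iPS-J) and 1.996 (ESC)).

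In the 14 planar polarity and non-canonical receptor genes, 3 were higher and 6 lower in iPS-OSH, 3 and 5 in iPS-J, and 2 and 5 in ESC. The atypical cadherin Celsr1 was 114 in iPS-OSH, 239 in iPS-J, 125 in ESC and 7.47 in MEF, the actin regulator Daam2 20.99 in iPS-OSH, 5.97 in iPS-J, 9.597 in ESC and 125 in MEF and the receptor Ryk 636 in iPS-OSH, 407 in iPS-J, 319 in ESC and 1957 in MEF. Of 8 genes known to be repressed by Tcf7l1 in mouse ESC, 7 were on the array by name, and all 7 were higher than in MEF on each pluripotent array. They include the pluripotency genes Tcl1, Nanog and Nr0b1, and Nanog and Esrrb are also in the marker list above. For Nanog the dimmer probe went the opposite way, at -1.07 (iPS-OSH), -1.09 (iPS-J) and -1.95 (ESC), so the count rests on its brighter probe. Tcl1 was 803 in iPS-OSH, 1479 in iPS-J, 2205 in ESC and 0.427 in MEF (not well above background), and Nr0b1 1007 in iPS-OSH, 1091 in iPS-J, 694 in ESC and 0.753 in MEF (not well above background).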

How the data were processed

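RNA of each population was amplified, labelled with Cy3 and hybridized to 1 array, per the labels. The deposited scanner output gives the intensity of 62976 spots, background-subtracted and detrended within each array by Agilent Feature Extraction 10.5.1.1 and not scaled between arrays, as the file headers state. The deposited value table holds the same intensity rounded, with deviations of at most 0.497%. Spots marked as uneven or outlying (203 to 531 per array) and control spots were left out. The intensity of each array was divided by its 75th percentile (1564 in iPS-OSH, 1241 in iPS-J, 1307 in ESC and 1765 in MEF) and taken on a log2 scale, spots of a probe were averaged, and each gene name was represented by its brightest probe over the 4 arrays. A gene was compared if well above background on at least 1 of 2 arrays. A bound takes, for the dim array, the higher of its lowest signal well above background and the dim probe's own. Names and mm9 coordinates are those of the design file shared by 3 arrays. The MEF file uses an earlier design in which 2 of the 69 probes, of Lgr5 and Lef1, carry other names. No annotation of mm9 was used, so exons and UTRs are not given.

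The genes, the lists and the rule for named genes were chosen with earlier results of these data known. The rule takes, per comparison, the 3 largest measured differences and the largest bound in each direction, a fixed set of core genes and all other members by role, and from each list the 3 genes farthest from MEF. Alternatives were background correction by normexp (limma 3.58.1 in R 4.3.3, offset 50), quantile normalization, other scalings, stricter detection (both arrays, or a signal over that of 95% of ERCC control probes), the median over probes, the unscaled value table, and a 4-fold threshold. The differences and counts were tested on simulated data in which every probe was taken as detected. That test did not cover the bounds or the detection rule.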

Additional observations from a re-analysis of the deposited data

Results flagged for a closer look

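Frzb was the gene of this pathway whose differences from MEF were 2-fold or more in opposite directions on different pluripotent arrays. It was higher than MEF by 1.29 on the log2 scale in iPS-OSH, while the difference was -2.02 in iPS-J and -2.09 in ESC. With normexp background correction the iPS-OSH difference was 0.94, under 2-fold, and with detection above the ERCC control probes that of ESC was at least -0.08. With 1 array per population the difference between the populations was not tested, and these differences share the MEF array.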

How the results depend on the processing

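The 139 member differences of 2-fold or more gave 1083 values under 8 alternatives. Of these 1069 kept their direction, 10 were bounds of 0 with no direction (9 with detection above the ERCC control probes, among them Axin2, Lgr6, Wnt3 and Wnt7b in iPS-OSH against MEF) and 4, all of Wnt8b, reversed. Many of the values could not change direction by construction, so the count of 1069 overstates the agreement. Detection on both arrays left its 121 values as they were, and the median over probes those of the 44 genes with 1 probe. The detection settings alone cannot reverse a difference, since a bound stops at 0. Values or bounds fell under 2-fold most often with normexp (29 of 139) and ERCC detection (24 of 130). Against ESC, Wnt8b was -0.92 in iPS-OSH and -0.52 in iPS-J with normexp, and -0.55 and -0.16 with quantile normalization, where the other Wnt8b probe may stand for the gene. Counts moved by over 1.5 times as follows, and the cause was not tested. Detection above the ERCC control probes gave 9 members higher in iPS-OSH than MEF, 9 in ESC than MEF and 9 in iPS-OSH than ESC. Normexp gave 6 lower in iPS-OSH than ESC, and 3 higher and 4 lower in iPS-J than ESC. Quantile normalization gave 5 lower in iPS-OSH and 4 in iPS-J than ESC, and spike-in scaling 6 and 4, with 3 lower in iPS-OSH than iPS-J. Scaling over probes detected on all arrays gave 3 higher and 12 lower in iPS-J than ESC, and the unscaled values left 1 lower in iPS-OSH than iPS-J. By construction the 4-fold threshold gave fewer: 8 higher and 6 lower in iPS-OSH than MEF, 10 lower in iPS-J than MEF, 5 and 2 in iPS-OSH than ESC, 1 and 2 in iPS-J than ESC, and 5 and 1 in iPS-OSH than iPS-J. Other counts stayed within 1.5 times. Of the genes counted as different, 1 to 4 per comparison had both signals under 200, where spot noise is largest. No paired analysis was possible because each group holds 1 array.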
